A study of Mus musculus with 12 samples.

Results

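The core circadian clock loop was followed here through 10 genes: Per1, Per2, Per3, Cry1, Cry2, Nr1d1, Nr1d2, Clock, Npas2 and Bhlhe41. They were picked by symbol from the 21738 symbols of the deposited count table, and all 10 were found and passed the filter on low counts. They were chosen with earlier results of the same libraries known. Their differences between genotypes are therefore given as a description, without a test of their own. The libraries were made from oligo d(T)-selected RNA of adult mouse whole cortex, with 4 libraries each of WT, HxD and KO. WT carries the normal Tet1 gene, whose product oxidises 5-methylcytosine in DNA. HxD is a Tet1 genotype whose label is also the name of the iron-binding motif of TET enzymes, and KO is the Tet1 knockout label. By its title, the study asks about the enzymatic and the non-enzymatic roles of TET1. The labels name no strain, exact age, sex or hour of tissue collection, and do not say that libraries came from separate animals, so the spread between libraries may be technical.

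The clock loop is a transcriptional feedback circuit. CLOCK, or its paralog NPAS2, pairs with BMAL1 and binds E-box sequences near the genes of its own repressors. PER and CRY proteins return to the nucleus and block that activator, the nuclear receptors encoded by Nr1d1 and Nr1d2 (REV-ERB alpha and beta) repress Bmal1, Clock and Npas2, and BHLHE41 (DEC2) competes for E-boxes. In mouse tissues the Per, Nr1d and Dbp transcripts therefore peak near the opposite phase to Npas2, and the cortex runs this loop under the timing of the suprachiasmatic nucleus of the hypothalamus. Per1 is also known as a gene induced by glucocorticoids and by neuronal activity. Repressor arm is used below for the 8 genes other than Clock and Npas2, and activators for these 2. Arntl, the gene of BMAL1, was not analysed here.

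Promoter windows were taken from RefSeq on build GRCm38.p6, 250 bases before to 50 after a start site. A window was found for 9 of the 10 genes, with several start sites for Per1 and Clock, and Per2 had no entry. Each window was searched on both strands for the E-box CACGTG, the E-prime box CACGTT, the D-box TTATGTAA of PAR bZIP factors such as DBP, the nuclear receptor motif AGGTCA, the cyclic AMP response element TGACGTCA, and a full glucocorticoid receptor palindrome. The E-box was found for 3 genes, Per1, Cry1 and Bhlhe41, in a single window each, among the 12 windows of the members. It is held by 7.15% of all 32851 such windows. Of the Per1 windows, that of the upstream start site is shown, and the other one, chr11:69099902-69100201, held no match. The windows of Per1, Nr1d2 and Bhlhe41 are printed because these genes had no overlap between KO and WT libraries, that of Npas2 because it is the activator whose libraries were measured without large jumps, and that of Per3 for its D-boxes. Capitals mark the motifs found, on either strand, and all are written 5′ to 3′ on the gene's strand.
Per1, chr11:69098699-69098998, plus strand: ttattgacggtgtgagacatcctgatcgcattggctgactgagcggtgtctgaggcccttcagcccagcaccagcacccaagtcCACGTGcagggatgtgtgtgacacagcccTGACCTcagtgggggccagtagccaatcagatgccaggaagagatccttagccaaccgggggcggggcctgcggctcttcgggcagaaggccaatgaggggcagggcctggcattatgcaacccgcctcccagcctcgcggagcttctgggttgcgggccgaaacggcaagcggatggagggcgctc
Nr1d2, chr14:18239057-18239356, minus strand: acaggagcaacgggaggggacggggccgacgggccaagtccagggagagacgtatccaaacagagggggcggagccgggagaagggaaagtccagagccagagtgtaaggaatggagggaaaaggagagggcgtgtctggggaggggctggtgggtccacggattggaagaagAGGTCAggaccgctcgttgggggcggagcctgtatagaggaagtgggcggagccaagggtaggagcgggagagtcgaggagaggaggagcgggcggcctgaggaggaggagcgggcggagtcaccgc
Bhlhe41, chr6:145865371-145865670, minus strand: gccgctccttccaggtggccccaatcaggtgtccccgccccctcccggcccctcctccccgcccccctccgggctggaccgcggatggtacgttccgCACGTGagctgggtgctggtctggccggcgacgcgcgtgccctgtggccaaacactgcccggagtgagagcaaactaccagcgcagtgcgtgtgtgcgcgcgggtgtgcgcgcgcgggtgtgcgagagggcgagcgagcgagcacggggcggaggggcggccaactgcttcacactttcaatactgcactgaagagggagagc
Per3, chr4:151044616-151044915, minus strand: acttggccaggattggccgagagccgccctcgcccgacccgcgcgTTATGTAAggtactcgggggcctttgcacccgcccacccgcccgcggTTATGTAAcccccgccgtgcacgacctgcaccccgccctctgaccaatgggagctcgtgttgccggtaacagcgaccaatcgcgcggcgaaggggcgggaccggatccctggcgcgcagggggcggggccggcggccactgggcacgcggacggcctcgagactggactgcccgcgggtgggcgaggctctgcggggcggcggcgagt
Npas2, chr1:39194022-39194321, plus strand: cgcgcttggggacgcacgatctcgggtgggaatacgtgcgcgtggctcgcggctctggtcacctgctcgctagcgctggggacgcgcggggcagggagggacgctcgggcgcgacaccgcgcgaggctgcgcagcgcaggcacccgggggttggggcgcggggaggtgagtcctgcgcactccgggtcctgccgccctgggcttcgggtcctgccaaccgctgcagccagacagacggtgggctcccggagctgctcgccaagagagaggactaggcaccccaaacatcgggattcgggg
In the Per1 window shown the E-box starts 166 bases upstream of the start site and AGGTCA 137 bases upstream, a motif held by 16.3% of all windows. Bhlhe41 has its E-box 153 bases upstream, and Nr1d2 has AGGTCA 77 bases upstream and no E-box in this window. A Clock window, not shown, also held AGGTCA, 119 bases upstream, and the other Clock windows held no match. Per3 has a pair of D-boxes, 205 and 158 bases upstream, a motif that 0.938% of all windows hold. The Npas2 window held no match to any motif searched. E-prime boxes, in 4.68% of all windows, were found in Cry1, Cry2 and Nr1d1, the last 28 bases upstream. No member window held the cyclic AMP response element, in 1.79% of all windows, or the glucocorticoid receptor palindrome, in 0.0578%. A match is a description of the letters, not a binding site.

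The depth of the WT libraries was 8310783 to 10915574 estimated counts, that of HxD 7767787 to 10347432, and that of KO 5791642 to 9535409. Levels below are CPM, counts scaled to library size, computed from the deposited counts of the 11693 tested genes with TMM factors. Every WT and KO library listed Tet1 at 0, and HxD 1 to 4 held 1, 0, 63 and 67 counts, so the knockout label cannot be checked from this gene, and Tet3 was listed at 0 in all 12 libraries. For Tet2, WT had 37.9 ± 4.78 CPM, HxD 41.0 ± 19.2 and KO 36.9 ± 10.9 (SD, n = 4). Cortical excitatory neuron markers summed to 2264 to 3759 CPM over the 12 libraries, with 6 of 8 markers tested. Of 9 markers of the suprachiasmatic nucleus and hypothalamus, 7 did not pass the filter, Prok2, Nms and Six6 were listed at 0 in all libraries, and the summed level was 12.5 to 27.9 CPM. Whole cortex holds many cell types, so fewer cells of a type and less RNA per cell cannot be told apart in any value below.

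Per unit of transcript length, the levels of the 10 genes in WT cortex spanned from Nr1d1 at the top to Clock at the bottom. Nr1d1 stood at 62.7 ± 16.1 CPM per kilobase of the longest annotated transcript and Cry2, the cryptochrome with the higher level, at 57.2 ± 4.72 (SD, n = 4), and their libraries overlapped. Nr1d2 followed at 31.7 ± 3.94, then Per1 at 26.0 ± 8.49 and Npas2 at 19.2 ± 3.02. Cry1 at 10.4 ± 2.202, Bhlhe41 at 10.3 ± 2.43, Per2 at 8.34 ± 1.91 and Per3 at 7.45 ± 1.08 CPM per kilobase formed a group in which each neighbour overlapped the next. Clock stood last at 1.998 ± 0.570. Neighbours in this order did not overlap at 3 places, between Cry2 and Nr1d2, between Npas2 and Cry1, and between Per3 and Clock. With the union of all annotated exons as the length, all 10 genes took the same ranks.

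**Figure D1:**
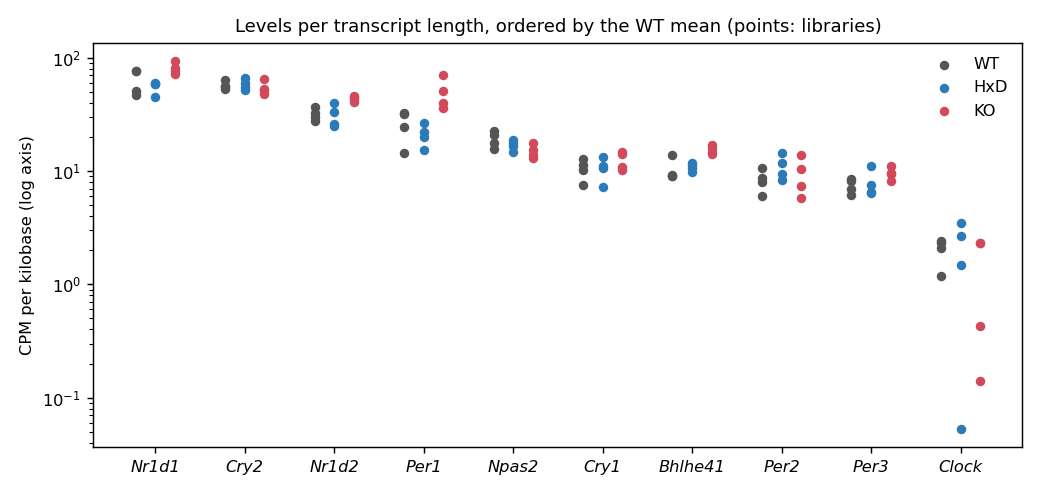
CPM per kilobase of the longest transcript (log axis) for each of the 10 genes, ordered by the WT mean, with 1 point per library coloured by genotype. Nr1d1 and Cry2 lead at 62.7 and 57.2 in WT, and Clock is lowest at 1.998, with single libraries far below that in HxD and KO.

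Among the repressors, Per1, a PERIOD protein gene that responds to acute signals, had the largest fitted log2 fold change of KO against each other genotype. Its levels in WT 1 to 4 were 153, 150.1, 67.9 and 115 CPM, in HxD 1 to 4 they were 93.7, 104, 71.3 and 124, and in KO 1 to 4 they were 329, 236, 168 and 186. All KO libraries lay above all WT and all HxD libraries, and KO 1 was the highest of the 12. The log2 fold change was 0.92 ± 0.29 (SE) in KO against WT, a 1.89-fold difference, and 1.23 ± 0.29 in KO against HxD, while HxD against WT gave -0.31 ± 0.29.

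Per2, a PERIOD gene needed for a stable rhythm, had KO libraries spread through the range of the others. WT 1 to 4 had 61.9, 46.7, 50.8 and 35.0 CPM, HxD 1 to 4 had 54.5, 68.5, 48.4 and 84.7, and KO 1 to 4 had 81.2, 60.5, 42.7 and 33.5. The 3 genotypes overlapped throughout, KO held both a high and the lowest library, and the log2 fold change in KO against WT was 0.16 ± 0.29 (SE). Per3, the least essential PERIOD gene for the rhythm, had 41.8, 51.0, 36.9 and 48.9 CPM in the WT libraries, 38.2, 45.4, 39.0 and 65.8 in the HxD libraries and 66.5, 57.5, 49.2 and 56.9 in the KO libraries. Only KO 3 lay within the WT range, and the log2 fold change in KO against WT was 0.36 ± 0.18 (SE).

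The cryptochromes, which bind the activator directly, differed little between genotypes. Cry1, the cryptochrome that peaks later than the Per genes, had 38.4, 22.7, 34.03 and 30.9 CPM in the WT libraries, 22.1, 40.6, 33.7 and 32.4 in the HxD libraries and 43.0, 44.1, 32.5 and 30.7 in the KO libraries. Cry2, whose fitted SE was the smallest of the members, had means of 228 ± 18.8 CPM for WT, 231 ± 24.5 for HxD and 216 ± 29.5 for KO (SD, n = 4). The log2 fold changes in KO against WT were 0.25 ± 0.22 (SE) for Cry1 and -0.07 ± 0.11 for Cry2, and the genotypes overlapped for both genes.

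The REV-ERB receptors, which repress the activator genes, stood at their highest means in KO. Nr1d1 was measured at 139, 209, 127 and 208 CPM in WT 1 to 4, at 159.8, 163, 123 and 159 in HxD 1 to 4 and at 209.8, 197, 222 and 254 in KO 1 to 4. KO lay above all HxD libraries, but KO 2 fell below WT 2 and WT 4. Nr1d2 had 141, 152, 128 and 171 CPM in the WT libraries, 122, 156, 115 and 184 in the HxD libraries and 199.9, 213, 211 and 189 in the KO libraries, so that KO was above every library of both other genotypes. The log2 fold changes in KO were 0.37 ± 0.17 (SE) for Nr1d1 and 0.46 ± 0.15 for Nr1d2 against WT, and 0.55 ± 0.17 and 0.49 ± 0.15 against HxD.

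Bhlhe41, the DEC2 repressor that competes with CLOCK and BMAL1 for E-boxes, had 55.4, 56.9, 55.3 and 85.6 CPM in WT 1 to 4, 69.4, 65.1, 71.8 and 60.1 in HxD 1 to 4 and 89.7, 105, 97.2 and 87.0 in KO 1 to 4. KO was above all other libraries, although WT 4 lay just under KO 4, the lowest KO library. The log2 fold change in KO against WT was 0.58 ± 0.14 (SE), a 1.495-fold difference, and without WT 4 it was 0.75.

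**Figure D2:**
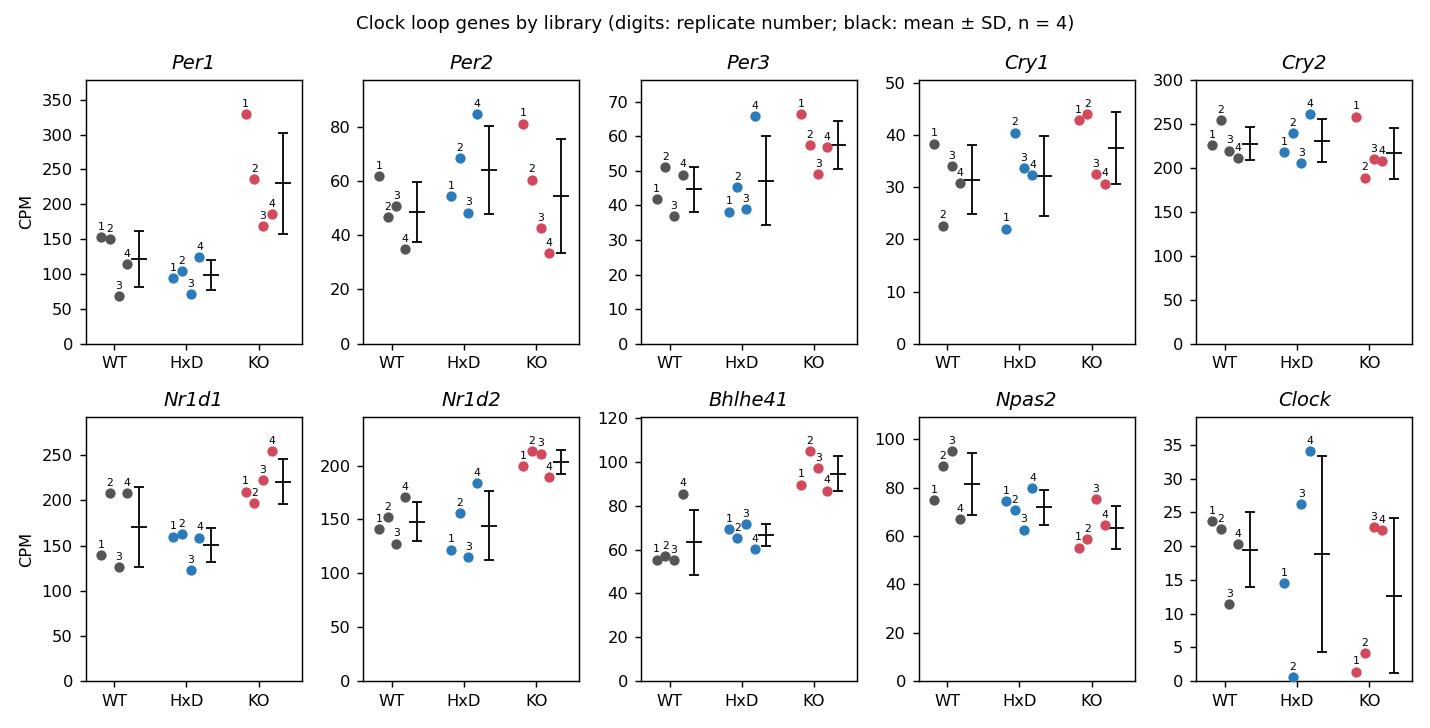
CPM of the 10 clock loop genes in each library, with the replicate number beside each point and the mean ± SD (n = 4) in black, on linear axes that start at 0. KO points lie above all WT points for Per1, Nr1d2 and Bhlhe41, and Clock falls near 0 in HxD 2, KO 1 and KO 2.

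On the activator side, Npas2, the CLOCK paralog of the forebrain, had 74.7, 88.7, 94.9 and 66.9 CPM in WT 1 to 4, 74.4, 70.6, 62.6 and 79.9 in HxD 1 to 4 and 55.1, 58.5, 75.3 and 64.6 in KO 1 to 4. KO 1, KO 2 and KO 4 were below every WT library, and KO 3 was inside the WT range. The log2 fold change was -0.36 ± 0.14 (SE) in KO against WT and -0.18 ± 0.14 in both HxD against WT and KO against HxD.

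Clock could not be ranked between genotypes. The WT libraries had 23.7, 22.5, 11.4 and 20.3 CPM, the HxD libraries 14.5, 0.520, 26.2 and 34.04, and the KO libraries 1.37, 4.14, 22.8 and 22.4. The 3 lowest libraries, HxD 2, KO 1 and KO 2, held 4, 8 and 31 estimated counts against 94 to 349 in the others. Within a genotype, the ratio of the highest to the lowest library on the CPM + 0.5 scale reached 33.9 for Clock and at most 2.40 for the other members, and 14.3% of all tested genes reach 10 in at least 1 genotype. The fitted log2 fold change of Clock in KO against WT was -0.62 ± 0.99 (SE).

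Read over all members, 7 of 10 had a fitted log2 fold change above 0 in KO against WT (50.9% of all tested genes did), with a median of 0.31 against 0.01 over all tested genes. In the repressor arm it was 7 of 8 with a median of 0.37, and both activators were below 0. With the edgeR quasi-likelihood test at an adjusted p below 0.05, 0 of 10 members were called (0.154% of all tested genes were), 4 had an unadjusted p below 0.05 (9.48% of all did), and limma-voom called 0 (0% of all). The DESeq2 Wald test called Bhlhe41, and it called 2.48% of the genes to which it gave an adjusted p. Libraries did not overlap and were higher in KO for 3 members, Per1, Nr1d2 and Bhlhe41 (3.25% of all tested genes). These contrasts were known when the members were chosen, so nothing is read from the counts. Without WT 4 edgeR called Bhlhe41 as well (adjusted p = 0.012), in a setting that called 35 genes where the main fit called 18.

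HxD against WT gave 5 members above 0 (51.3% of all tested genes were) and 5 below, with a median of -0.01. By edgeR 0 of 10 were called (0.898% of all tested genes were), 0 had an unadjusted p below 0.05 (4.05% of all did), and the DESeq2 Wald test (1.48% of all) and limma-voom (0.701% of all) called 0 members each. For every member the HxD and WT libraries overlapped, while 1.76% of all tested genes were higher in HxD without overlap and 1.72% lower. The largest fitted differences were 0.40 ± 0.29 (SE) for Per2 and -0.31 ± 0.29 for Per1 on the log2 scale.

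KO against HxD, which shares the KO libraries with the comparison above, gave 6 members above 0 (50.2% of all tested genes were) and a median log2 fold change of 0.26, and 0.00 over all tested genes. Again 0 of 10 were called by edgeR (1.02% of all tested genes were), 4 had an unadjusted p below 0.05 (11.6% of all did), limma-voom called 0 (0.718% of all), and the DESeq2 Wald test called Per1, Nr1d2 and Bhlhe41 (3.4% of all). Libraries were higher in KO without overlap for Per1, Nr1d1, Nr1d2 and Bhlhe41 (3.97% of all tested genes). Leaving out WT 3 brought Per1 to an adjusted p of 0.0498 in edgeR, and leaving out WT 4 brought Bhlhe41 to 0.0161. WT libraries enter this comparison only through the shared fit. Leaving out 1 library gave 97 to 137 genes called, where the main fit called 119. With the replicate number of the labels as a block, Per1 reached 0.0435. Nr1d2 reached 0.016 with the library sets described below as a covariate and 0.00933 with libraries 1 and 3 of WT and HxD alone. That last setting called 445 genes, and the 23 alternatives ranged from 84 to 445. Over 23 alternatives, DESeq2 included, Per1 and Nr1d2 were called in 3 each and Bhlhe41 in 2, and the highest adjusted p was 0.525 for Per1, 0.711 for Nr1d2 and 0.4996 for Bhlhe41.

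**Figure D3:**
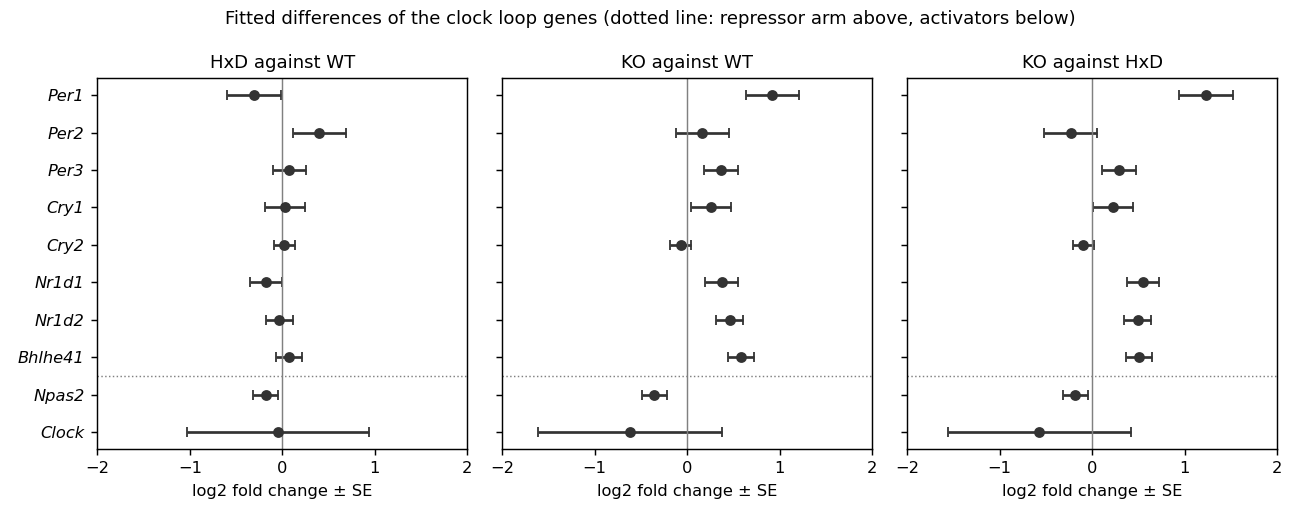
Fitted log2 fold change ± SE from the edgeR fit over 12 libraries for each member in the 3 comparisons, with the activators below the dotted line. In KO against WT, 7 of 8 repressor arm genes lie above 0 and both activators below, with an SE of 0.99 for Clock.

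A balance of the loop was formed per library as the mean of the repressor arm minus the mean of the activators, on log2(CPM + 0.5) centred per gene. Its mean was -0.56 ± 0.12 for WT, -0.05 ± 1.23 for HxD and 0.61 ± 1.16 for KO (SD, n = 4). The 3 libraries with few Clock counts, HxD 2 at 1.78, KO 1 at 1.99 and KO 2 at 1.13, were the only ones above 0. With Npas2 alone as the gene of opposite phase, the balance was -0.13, -0.38, -0.74 and 0.03 in WT 1 to 4, -0.32, 0.01, -0.13 and -0.05 in HxD and 0.84, 0.59, 0.05 and 0.24 in KO. In this form all KO libraries lay above all WT and HxD libraries, with KO 3 closest to them.

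Lists of glucocorticoid-induced genes and of activity-induced factors, from which clock genes were left out, were read beside the members because Per1 responds to both signals. The glucocorticoid list stood at a median of 0.38 ± 0.22 in KO, -0.20 ± 0.23 in WT and -0.18 ± 0.19 in HxD on the same centred scale (SD, n = 4), and KO 1 was highest at 0.70. Of its 16 tested genes, 14 were above WT in KO with a median log2 fold change of 0.39, where 50.9% of all tested genes were above 0. The 2 below 0, named after their values were seen, were Zbtb16 at -0.10 ± 0.31 (SE) and Sult1a1 at -0.02 ± 0.998. HxD against WT had 13 of the 16 above 0 (51.3% of all tested genes were), with a median of 0.10. Of the 16 in KO against WT, edgeR called 1 (0.154% of all), the DESeq2 Wald test 5 (2.48% of all) and limma-voom 0 (0% of all). An unadjusted edgeR p below 0.05 was seen for 7 (9.48% of all), and 5 were higher in KO without overlap (3.25% of all). Cebpd, a transcription factor gene that glucocorticoids induce, was called higher by edgeR at 22.5 ± 3.89 CPM against 7.84 ± 1.45 (adjusted p = 0.0453), and Nfkbia, an inhibitor of NF-kappa B, stood at 58.9 ± 7.03 against 34.5 ± 6.39 (adjusted p = 0.0817). Against HxD, edgeR called Tsc22d3, a glucocorticoid-induced leucine zipper gene named after its values were seen, at 153 ± 44.3 CPM for KO, 48.1 ± 17.6 for HxD and 45.3 ± 14.9 for WT (adjusted p = 0.0397). Tsc22d3 was the only call of the list there by edgeR (1.02% of all) and by limma-voom (0.718% of all). The DESeq2 Wald test called 5 of the list in KO against HxD (3.4% of all).
The activity list stood at 0.44 ± 0.46 in KO, -0.26 ± 0.59 in WT and -0.01 ± 0.81 in HxD, and the 3 genotypes overlapped. In KO against WT 15 of its 18 genes were above 0 (50.9% of all tested genes were) with a median log2 fold change of 0.66. Of the 18, 2 had an unadjusted p below 0.05 in edgeR (9.48% of all tested genes did). By edgeR 0 were called (0.154% of all), by limma-voom 0 (0% of all) and by the DESeq2 Wald test 2 (2.48% of all). The 3 below 0, named after their values were seen, were Npas4 at -1.16 ± 0.89 (SE), Egr3 at -0.37 ± 0.60 and Nr4a2 at -0.14 ± 0.56. HxD against WT also had 15 of the 18 above 0 (51.3% of all tested genes were), with a median of 0.43. Dusp5, which encodes a phosphatase of MAP kinases, had 44.7 ± 7.53 CPM in the KO libraries and 16.0 ± 4.26 in the WT libraries (edgeR adjusted p = 0.0785), and the related Dusp1 at 90.1 ± 20.8 against 22.1 ± 10.4 (adjusted p = 0.144), with Dusp1 listed at 0 in all 4 HxD libraries. Dusp1 was called by edgeR in HxD against WT (adjusted p = 0.000254, 0.898% of all tested genes called). It was also called in KO against HxD (edgeR adjusted p = 7.93e-05, 1.02% of all called). Both calls rest on the HxD libraries at 0. Tet1 was likewise listed at 0 in every WT library, and Tet3 in every library. Whether the listed 0 of Dusp1 means absent RNA or unassigned reads was not tested. The DESeq2 Wald test called Dusp1 in both comparisons, while limma-voom called 0 genes of the list in either. The part of these lists in the Per1 values was not tested. Oligodendrocyte markers summed to 3012 to 3560 CPM over the KO libraries, with WT at 1865 to 4441 and HxD at 1357 to 3980. Astrocyte markers summed to 2059 to 2358 CPM for KO, 1677 to 2163 for WT and 1682 to 2445 for HxD, and their part in the member values was not tested either. Striatal markers, at 8 of 9 tested, ranged from 292 to 436 CPM for KO, 400.5 to 670.3 for WT and 257 to 1123 for HxD. On the centred scale the striatal median was -0.90 to -0.23 in KO, below all WT libraries at -0.18 to 1.17, and HxD spanned -0.60 to 2.08. The part of this difference in the member values was not tested.

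**Figure D4:**
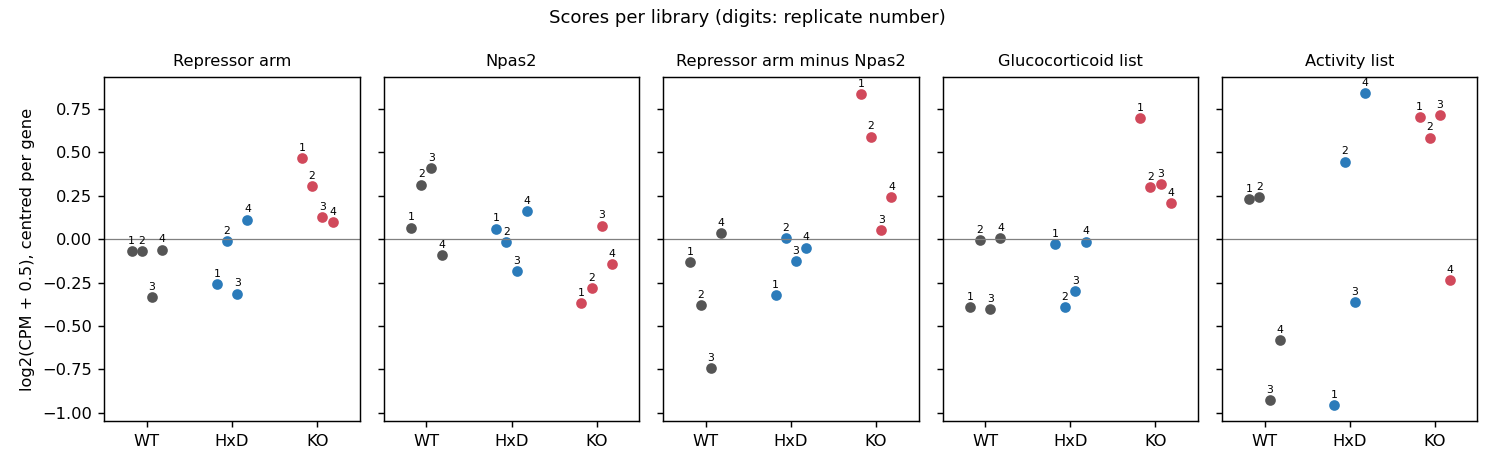
Scores per library on log2(CPM + 0.5) centred per gene: the mean of the repressor arm, Npas2, their difference, and the medians of the glucocorticoid and activity lists, with replicate numbers beside the points. In the difference, KO lies at 0.05 to 0.84 and WT at -0.74 to 0.03, and KO 1 is highest in the repressor arm and in the glucocorticoid list.

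The members were also read in libraries 1 and 3 against libraries 2 and 4 of WT and of HxD, sets that no label names and that were chosen with earlier results known. In WT, Nr1d1 averaged 133 CPM in libraries 1 and 3 and 208 in 2 and 4, and Nr1d2, Per3 and Bhlhe41 were also lower in 1 and 3 without overlap. Per2 and Cry1 went the other way in WT, at 56.4 against 40.9 CPM and 36.2 against 26.8. In HxD, 5 members, Per1, Per2, Per3, Cry2 and Nr1d2, were lower in libraries 1 and 3, and Bhlhe41 was higher. With 2 libraries against 2, such a split without overlap is seen for 19.97% of all tested genes lower and 19.99% higher in WT, and for 21.6% lower and 21.4% higher in HxD. The log2 fold change of Nr1d1 in KO against WT was 0.07 against libraries 2 and 4 of WT and 0.73 against libraries 1 and 3, while Per1 gave 0.79 and 1.05 and Bhlhe41 0.40 and 0.77.

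Deviations of each library from its genotype mean do not use the difference between genotypes and show how the members vary together over the 12 libraries. Over the 45 pairs of members, Pearson's r of these deviations ranged from -0.56 to 0.80 with a median of 0.08, and 26 pairs were above 0. Per3 and Nr1d2 had the highest value, 0.80 (Spearman's rho 0.70), and 0.59 when the 2 libraries farthest in Per3 were left out. Per1 and Per3 gave 0.71 and Per1 and Cry2 0.64. The lowest were Npas2 with Bhlhe41 at -0.56, Cry1 with Nr1d1 at -0.56 and Cry2 with Bhlhe41 at -0.55. Of genes outside the loop, Bhlhe40, the DEC1 paralog of Bhlhe41, gave 0.88 with Per1 and 0.84 with both Per3 and Cry2, and Hlf, a PAR bZIP output factor, gave 0.83 with Nr1d2 and 0.78 with Nr1d1. Bhlhe41 did not share the pattern of its paralog, at -0.41 with Bhlhe40. The values are given as a description, since the genes share library, depth and scaling.

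**Figure D5:**
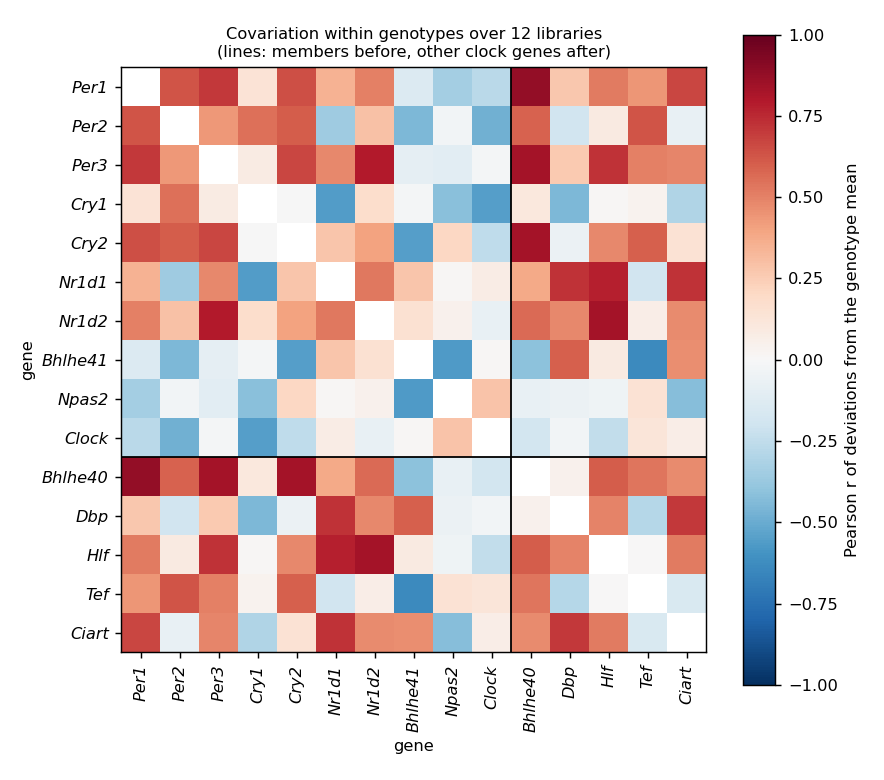
Pearson's r between clock genes over 12 libraries, each gene taken as its deviation from the genotype mean on log2(CPM + 0.5), with red above 0 and blue below. Per1, Per3 and Cry2 are red with Bhlhe40 at 0.84 to 0.88, and Bhlhe41 is blue with Npas2 and Cry2.

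Of 31 other clock genes read beside the loop, 28 were on the table and 25 were tested. In KO against WT 15 were above 0 (50.9% of all tested genes were) and 10 below, with a median log2 fold change of 0.08. By edgeR 0 were called (0.154% of all tested genes were), and 5 had an unadjusted p below 0.05 (9.48% of all did). Of the other tools, limma-voom called 0 (0% of all) and the DESeq2 Wald test called Dbp (2.48% of all). Dbp, the PAR bZIP gene driven through E-boxes, had 86.1, 125, 83.9 and 154 CPM in the WT libraries, 140.2, 106, 77.6 and 108 in the HxD libraries and 191, 245, 219.9 and 187 in the KO libraries, without overlap of KO and the others (edgeR adjusted p = 0.199 against WT and 0.104 against HxD). Ciart, the gene of the repressor CHRONO, had 26.6 ± 5.72 CPM for KO, 10.2 ± 7.74 for WT and 11.9 ± 2.88 for HxD, where the WT libraries held 7 to 171 counts (edgeR adjusted p = 0.534 against WT). Dbp and Ciart were the 2 genes of the list higher in KO than in WT without overlap (3.25% of all tested genes). Within WT both were lower in libraries 1 and 3 without overlap (19.97% of all tested genes), at 85.0 against 139.6 CPM and 3.90 against 16.6. In HxD these sets overlapped for both genes. Bhlhe40 had 222 ± 68.3 CPM for KO and 156 ± 58.5 for WT, with overlap (edgeR adjusted p = 0.689).
The other output factors stayed closer to WT, with log2 fold changes in KO against WT of 0.33 ± 0.24 (SE) for Hlf, 0.13 ± 0.17 for Tef and 0.30 ± 0.24 for Nfil3, the bZIP repressor of opposite phase. Rora, an activator of Bmal1 that opposes the REV-ERB receptors, gave 0.24 ± 0.17. Rorb was listed at 0 in all libraries except HxD 1, at 153 counts. The kinases that mark PER proteins for degradation had 135 ± 13.1 CPM in KO against 143 ± 5.12 in WT for Csnk1d and 172 ± 20.4 against 166 ± 15.6 for Csnk1e (SD, n = 4). Usp2, a deubiquitinase with a clock-controlled transcript, stood at 98.2 ± 10.7 CPM in KO and 76.5 ± 10.2 in WT (edgeR adjusted p = 0.312). Gsk3b, a kinase of several clock proteins, had 298 ± 35.0 against 364 ± 30.3 (adjusted p = 0.411), and it was, with Ncor1 and Prkaa2, 1 of 3 genes of the list whose KO libraries lay below all WT libraries (3.95% of all tested genes). Ncor1 and Prkaa2 were named after their values were seen. In KO against HxD, which shares the KO libraries, Dbp, Ciart, Hlf and Usp2 were higher without overlap (3.97% of all tested genes were). Sfpq, also named after its values were seen, was lower without overlap (3.62% of all tested genes were).

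Genes of like pattern were sought by Pearson's r with the balance over 12 libraries among 7575 genes with a mean of at least 10 CPM and no library at 0. The highest were Mrpl34 at 0.88, Scand1 at 0.85, Polr1c at 0.84, Zfyve19 at 0.82 and Gart at 0.82. The lowest were Cep68 at -0.90, Sbf1 at -0.89, Timm29 at -0.88, Slmap at -0.87 and Mcrs1 at -0.86. With Clock left out of the balance, 0 of these 10 names stayed among the 10, and Rrp8 led at 0.92, with 22.1 ± 2.01 CPM in KO against 14.2 ± 2.85 in WT. The glutamate receptor subunit gene Grik3 was then lowest at -0.89, with 152 ± 11.9 CPM in KO and 204 ± 37.5 in WT. Both rankings are descriptions, over libraries of which KO is a set of 4.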

How the data were processed

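RNA was measured in 12 libraries of adult mouse whole cortex, grouped by the genotype in the titles. Per the labels' protocols, total RNA was purified on columns and poly(A) RNA was captured with oligo d(T) beads. The tools named per the submitters' processing notes, without role or order, are StringTie 2.2.3, STAR 2.7.1a, Trim Galore 0.6.7, FastQC and SAMtools 1.9, and the builds are mm10 and GRCm39. The sources used here do not give how reads were assigned, the strand setting or any filter.

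The deposited table holds unnormalized whole numbers per symbol and library, taken as estimated counts, since rows such as Clock and Rorb jump between few or no counts and many within a genotype. It has 21769 rows, and 25 symbols on several rows (56 rows) were left out. The main fit was edgeR 4.0.16 in R 4.3.3 (quasi-likelihood, robust, TMM, filterByExpr at a minimum count of 10) over all 12 libraries with 1 term per genotype and 9 residual degrees of freedom, and p-values were adjusted by Benjamini-Hochberg over 11693 genes. SE is the absolute log2 fold change divided by the square root of F. Scores use log2(CPM + 0.5). Lengths came from GENCODE M21. Depth speaks to counting error only, as the reads carry no stated molecular identifiers.

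Alternatives were DESeq2 1.42.0 size factors and Wald test, limma 3.58.1 voom, library size only, other filters, the 8 libraries of a comparison alone, a replicate block, the library sets as a covariate, other forms of the balance and each library left out. The library sets alone and the exon-union length were added after the data were seen. The scripts were tested on simulated data. The rule named all 10 members; of the other clock genes 12 set ones, any called by edgeR and the 3 with the smallest p in KO against WT; of the glucocorticoid and activity lists the 2 with the smallest p in KO against WT; and 5 genes at each end of likeness to the balance. The members, lists and rules were chosen with earlier results of these data known.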

Additional observations from a re-analysis of the deposited data

Results flagged for a closer look

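In groups of 4 libraries, 3 of 33 checked sets of values had a library standing apart from the other 3 beyond Dixon's critical value, where chance flags about 1 in 20. Nr1d1 in HxD 3 was 122.9 CPM, against 159 to 163 in the other HxD libraries. Bhlhe41 in WT 4 was 85.6 CPM, against 55.3 to 56.9 in the other WT libraries. The clock loop balance of HxD 2 was 1.78, against -0.80 to -0.45 in the other HxD libraries, and Clock held 4 estimated counts there.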

How the results depend on the processing

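Over 23 alternatives, the log2 fold change in KO against WT kept its direction for 9 of the 10 members, and Per2 changed sign in 2. The values ranged from 0.70 to 1.05 for Per1, 0.32 to 0.60 for Nr1d2, 0.40 to 0.77 for Bhlhe41, 0.07 to 0.73 for Nr1d1 and -0.45 to -0.28 for Npas2. In HxD against WT, 2 of 10 kept it in all 23. The count of genes called rested on the setting. The DESeq2 Wald test called 172 genes in HxD against WT, 288 in KO against WT and 396 in KO against HxD, where edgeR called 105, 18 and 119. In KO against WT limma-voom called 0 with 1145 at an unadjusted p below 0.05, and the 8 libraries compared alone gave 0 with 1171. Leaving out 1 library gave 91 to 109 genes in HxD against WT, 12 to 35 in KO against WT, with 35 without WT 4, and 97 to 137 in KO against HxD. Libraries 2 and 4 of WT and HxD alone gave 49 genes in HxD against WT and 4 in KO against WT, and libraries 1 and 3 alone gave 56, 10 and, in KO against HxD, 445, with fewer samples in each. The replicate block gave 5 genes in KO against WT. Same-numbered libraries deviated together at r of -0.07 to 0.07 over 12 pairs, and 4 of 12 libraries correlated best with their own number. The labels do not say whether the numbers pair the samples, and these correlations over few libraries cannot settle it.
The balance of KO against WT was 1.17 and stayed above 0 in 25 alternatives, from 0.71 to 1.61, and was 0.74 without Clock. KO 1 at 1.99 and KO 2 at 1.13, with few Clock counts, raised the KO mean, and no alternative left out both. KO 3 at -0.39 and KO 4 at -0.29 lay near the WT libraries, at -0.69 to -0.41. For HxD against WT the balance was 0.51, and -0.10 without HxD 2. For KO against HxD it was 0.66, and 0.09 with libraries 2 and 4 of HxD alone. Arntl could not enter the planned form with Arntl and Nfil3, so Nfil3 alone was added. Clock held 8 to 213 estimated counts in KO, which limits its values.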
